A study of Homo sapiens with 7 samples.

Results

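Oxidative phosphorylation subunit genes were taken as the genes of the nuclear genome that encode structural parts of respiratory complexes I to IV and of ATP synthase, complex V, in SUM159 cells in which SHP2 was knocked down. Members were found by gene symbol: NDUFA, NDUFB, NDUFC, NDUFS and NDUFV genes of complex I, SDHA to SDHD of complex II, UQCR genes of complex III, COX4 to COX8 genes of complex IV and ATP5 genes of complex V, without assembly factors and pseudogenes. The rule found 79 of the 18417 genes measured: 34 of complex I, 3 of complex II, 7 of complex III, 17 of complex IV and 18 of complex V. It used no expression value. By symbol it also took in ATP5IF1, which inhibits ATP synthase, and COX7A2L, which takes part in joining complexes III and IV. ATP5F1E, NDUFC2, NDUFS5 and UQCRHL sat only on probes that name several genes, and SDHB and UQCRFS1 had no probe with 1 gene name, so these were not analysed here. None of the 13 subunit genes of mitochondrial DNA was measured by a probe with 1 gene name.

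SUM159 is a triple-negative breast cancer line of mesenchymal character. Its RNA was hybridized to 7 Affymetrix whole-transcript arrays. On 2 arrays the cells carried a control hairpin (Ctrl shRNA), on 2 a hairpin against SHP2 (SHP2 sh1) and on 3 another hairpin against it (SHP2 sh2). All cells, controls included, had been transduced with a lentiviral vector whose hairpin is switched on by doxycycline, and all received doxycycline for 15 days in 2D culture. The paper, in contrast, names SUM159 tumours as the source of the expression data for its motif analysis. It does not state that these arrays were the data used there. The labels name an RNeasy kit for the RNA and the study's array methods name TRIzol, and neither says whether replicate arrays stem from different cultures. The p-values therefore cover only the variation among these 7 arrays, part of which may be technical. In bulk RNA, fewer cells with a transcript and less of it in each cell cannot be told apart.

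The inner membrane of mitochondria holds the respiratory chain. Complexes I and II pass electrons from NADH and succinate to ubiquinone, complex III hands them to cytochrome c, and complex IV gives them to oxygen. Complexes I, III and IV pump protons as they do so, and ATP synthase uses the returning protons to make ATP. Most subunits are encoded in the nucleus, and their promoters are known for sites of NRF1, GABPA and other ETS factors, YY1 and the oestrogen-related receptors.

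These sites were looked for in the members' promoters as RefSeq gives them on GRCh38.p14, each 300 bases from 250 before the start of transcription to 50 after it. A promoter was at hand for 67 of the 79 members. The letters searched, on both strands, were GCATGCGC for NRF1, CCGGAAGT for ETS factors, AAGATGGC for YY1 and TCAAGGTCA for oestrogen-related receptors. The NRF1 letters were in promoters of 13 members, 19.4% of the 67, against 3.68% of 27305 genes with a promoter and 4.87% of the 14239 of them measured on the arrays. The ETS letters were found for 12 members, 17.9%, against 4.95% and 7.15%, and the YY1 letters for 11 members, 16.4%, against 3.52% and 4.86%. The receptor letters were found for 1 member, SDHD (1.49%), against 0.432% and 0.302%. At least 1 of the 4 was present for 30 members, 44.8%, against 11.6% of all genes with a promoter. For this count the share among genes measured on the arrays was not taken. A match of letters is a description and does not show binding.

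Promoters of 5 members are shown, written 5′ to 3′ in the direction of the gene, with the matches in capitals. COX5B (chr2:97645812-97646111, plus strand) holds the NRF1 letters and 2 copies of the ETS letters, and NDUFA6 (chr22:42090723-42091022, minus strand) and NDUFS7 (chr19:1383657-1383956, plus strand) hold those of NRF1 and YY1. COX4I1 (chr16:85799445-85799744, plus strand) and NDUFV1 (chr11:67606686-67606985, plus strand), which recur in the results, hold none of the 4.
COX5B: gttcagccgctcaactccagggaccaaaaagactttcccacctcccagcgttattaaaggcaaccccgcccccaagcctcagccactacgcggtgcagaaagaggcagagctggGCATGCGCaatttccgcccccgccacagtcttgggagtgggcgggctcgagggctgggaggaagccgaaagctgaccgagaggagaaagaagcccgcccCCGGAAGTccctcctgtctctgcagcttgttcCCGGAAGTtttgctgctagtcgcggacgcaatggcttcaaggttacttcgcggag
NDUFA6: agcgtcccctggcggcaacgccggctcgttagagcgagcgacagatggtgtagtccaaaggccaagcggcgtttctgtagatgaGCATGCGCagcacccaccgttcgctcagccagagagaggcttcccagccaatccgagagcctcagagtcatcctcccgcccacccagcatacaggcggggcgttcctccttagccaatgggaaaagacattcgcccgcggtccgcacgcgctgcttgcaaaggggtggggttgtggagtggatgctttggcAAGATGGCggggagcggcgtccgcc
NDUFS7: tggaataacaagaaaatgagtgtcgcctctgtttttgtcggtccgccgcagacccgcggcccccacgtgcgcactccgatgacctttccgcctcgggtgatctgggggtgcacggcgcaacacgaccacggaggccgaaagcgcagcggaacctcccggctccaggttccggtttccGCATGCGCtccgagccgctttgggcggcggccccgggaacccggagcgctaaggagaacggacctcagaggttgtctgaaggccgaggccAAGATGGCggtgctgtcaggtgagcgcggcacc
COX4I1: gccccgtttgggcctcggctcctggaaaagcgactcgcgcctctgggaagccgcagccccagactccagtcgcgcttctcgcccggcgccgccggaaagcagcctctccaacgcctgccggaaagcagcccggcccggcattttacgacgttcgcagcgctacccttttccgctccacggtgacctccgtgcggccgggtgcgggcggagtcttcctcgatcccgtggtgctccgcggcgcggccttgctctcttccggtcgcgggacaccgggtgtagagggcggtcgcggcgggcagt
NDUFV1: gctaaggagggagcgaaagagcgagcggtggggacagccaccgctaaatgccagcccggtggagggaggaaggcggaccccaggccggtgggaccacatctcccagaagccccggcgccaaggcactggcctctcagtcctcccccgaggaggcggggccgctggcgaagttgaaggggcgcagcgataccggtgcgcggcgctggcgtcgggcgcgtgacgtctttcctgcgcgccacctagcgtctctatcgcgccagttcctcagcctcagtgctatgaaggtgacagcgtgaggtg

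The targeted gene, PTPN11, which encodes SHP2, was at log2 values of 9.53 and 9.18 with Ctrl shRNA, 7.90 and 6.93 with SHP2 sh1, and 7.96, 7.20 and 7.89 with SHP2 sh2, so all 5 arrays with an SHP2 hairpin lay below both controls. Replicate 2 of SHP2 sh1 and replicate 2 of SHP2 sh2 stood apart from the other arrays. Over all probes, pairs among the other 5 arrays correlated at 0.981 to 0.992, pairs of these 2 with the other 5 at 0.886 to 0.965, and these 2 with each other at 0.972. The spread of the values over all probes was 1.92 and 2.00 (SD) on these 2 arrays and 2.09 to 2.15 on the others. Of 6 mesenchymal markers, VIM, FN1 and ZEB1 lay below both controls on both of these arrays, and all 6 did on SHP2 sh2 replicate 2, where their median was -0.79 from the controls. VIM still lay between 11.62 and 12.18 on all 7 arrays, and CDH2 ranged from 6.77 to 9.28. Of 6 epithelial markers, CDH1 and GRHL2 lay above and KRT8 and KRT18 below both controls on both arrays, and CDH1, E-cadherin, was at 5.32 and 5.19 with Ctrl shRNA, 5.16 and 7.42 with SHP2 sh1, and 6.21, 7.12 and 5.61 with SHP2 sh2. The 3 receptor genes that triple-negative cells lack, 4 of 5 blood markers and 4 of 5 endothelial markers also lay above both controls on both, beside 47.6% of all genes. The part of these differences between arrays in the results was not tested.

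No subunit gene passed the test in any comparison. limma called 0 of 79 members with SHP2 sh1 against Ctrl shRNA, 0 with SHP2 sh2, 0 when both hairpins were averaged and 0 when they were set against each other (adjusted p under 0.05). The background was 0% of 18417 genes called in each of the 4 comparisons. At an unadjusted p under 0.05 in limma there were also 0 members in each, where all genes gave 201, 432, 358 and 116. With both hairpins averaged, the median log2 difference of the members was -0.17, with 55 members below 0 and 24 above, beside 0.08 over all genes and -0.27 over the 4605 genes of highest mean level, here called the brightest. It was -0.11 with SHP2 sh1 and -0.18 with SHP2 sh2, and -0.03 for SHP2 sh2 against SHP2 sh1. With the 2 arrays that stood apart left out, that median was 0.02, with 32 members below 0 and 47 above, beside 0.002 over all genes, and limma again called 0 members. The members' median level per array varied by 0.29 (SD) within groups, more than the difference of -0.17.

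The members differed more between arrays of the same hairpin than between hairpins. Measured from the mean of both controls, their median was 0.01 and -0.33 on the SHP2 sh1 arrays and -0.04, -0.62 and 0.09 on the SHP2 sh2 arrays. On SHP2 sh1 replicate 2, 51 members (64.6%) lay below both controls and on SHP2 sh2 replicate 2, 55 did (69.6%), against 26 (32.9%), 34 (43.0%) and 10 (12.7%) on SHP2 sh1 replicate 1 and SHP2 sh2 replicates 1 and 3. Over all genes the share below both controls was 37.4% and 40.4% on the first 2 arrays and 40.8%, 33.3% and 30.0% on the others. On SHP2 sh2 replicate 3 the order was the other way, and 43 members (54.4%) lay above both controls, against 41.7% of all genes. Over all genes the medians on the 2 arrays that stood apart were above 0, at 0.10 and 0.18. The 4605 brightest genes lay below 0 on them, with medians of -0.44 and -0.83, and 69.0% and 79.2% of them below both controls.

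**Figure D1:**
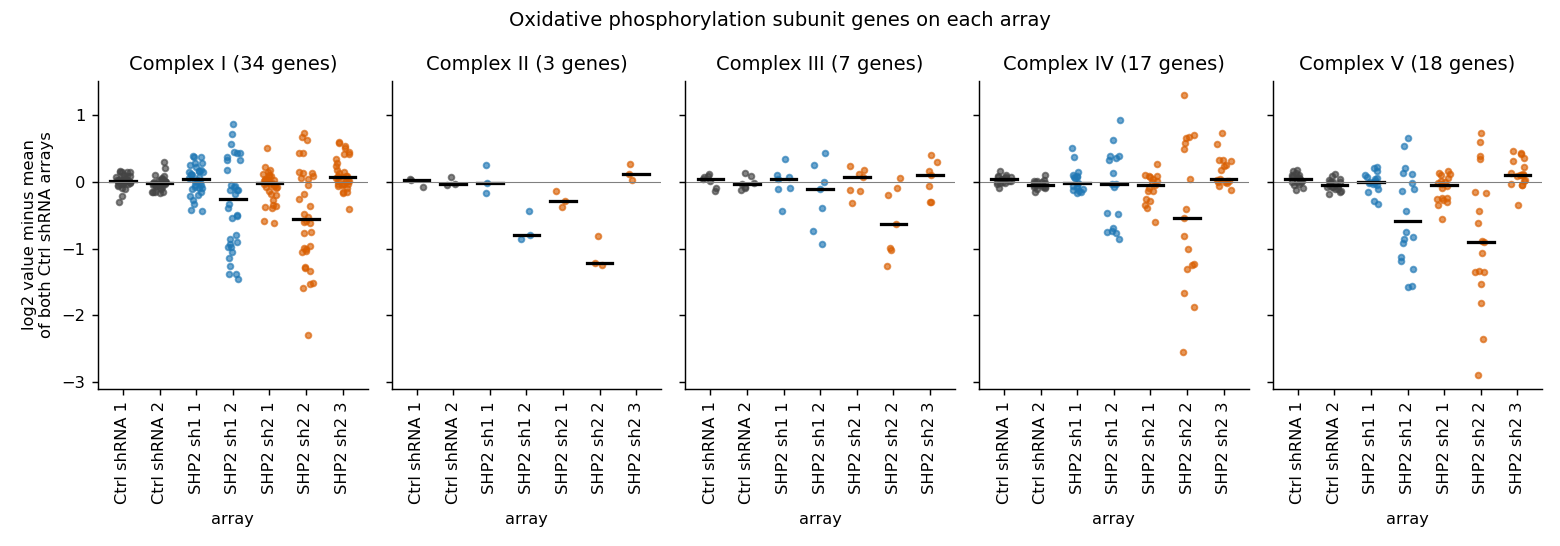
Each point is a subunit gene on an array, as its log2 value minus the mean of both Ctrl shRNA arrays (vertical axis), with a panel for each respiratory complex and a bar at the median. The points spread widest on SHP2 sh1 2 and SHP2 sh2 2, where the medians of complex V are -0.59 and -0.90. On the other SHP2 arrays the medians of complex V lie between -0.045 and 0.103, and that of complex II lies at -0.28 on SHP2 sh2 1.

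Over both arrays that stood apart, 49 members (62%) lay below both controls on each and 20 (25.3%) above both on each, and 10 did neither. Over all genes the shares were 34.3% below and 47.6% above. Another scaling moved the members' counts to 39 below and 25 above with cyclic loess, 39 and 24 with quantile normalization, and 54 and 15 with median centring. Over all genes the shares below and above were then 37.7% and 35.7%, 32.9% and 45%, and 40.1% and 40.4%, in the same order. On the other 3 SHP2 arrays the same 49 members had a median difference of 0.03 from the controls, with 30 above 0, and the 20 had a median of 0.01, with 11 above 0.

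Few members had no overlap between controls and SHP2 arrays. COX4I1 and NDUFV1 lay below both controls on all 5 SHP2 arrays, 2 of 79 members (2.53%) against a background of 7.17% of all genes. NDUFB11 lay above both, 1 of 79 (1.27%) against 8.13% of all genes. Both shares were under those of all genes. Of the 4605 brightest genes, 13.1% lay below both controls on all 5 and 2.63% above. NDUFV1 no longer lay below both controls with cyclic loess or quantile normalization. NDUFB11 no longer lay above both with quantile normalization or median centring. Without the 2 arrays that stood apart the members below were again COX4I1 and NDUFV1, against 8.81% of all genes. Those above were NDUFB11, NDUFA12, NDUFB8 and NDUFB9, 5.06% against 10.1%. Of the brightest genes, 15% then lay below and 7.08% above.

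COX4I1, the widely expressed form of subunit 4 of cytochrome c oxidase, was at 8.89 and 8.86 with Ctrl shRNA, 8.75 and 8.42 with SHP2 sh1, and 8.53, 7.65 and 8.75 with SHP2 sh2. All 5 SHP2 arrays were lower than the controls, and the gap to the nearest was 0.10. The log2 difference in limma was -0.29 with SHP2 sh1 (standard error 0.38, adjusted p = 0.995) and -0.57 with SHP2 sh2 (standard error 0.35, adjusted p = 0.667). NDUFV1, which carries the NADH site of complex I, was at 9.12 and 9.05, at 8.996 and 8.58, and at 8.996, 8.60 and 8.996 in the same order. Its SHP2 arrays were all below the controls, by 0.06 at the nearest, with the lowest 2 being those that stood apart. NDUFB11, a membrane subunit of complex I, was at 9.29 and 9.48, at 9.48 and 10.10, and at 9.54, 9.52 and 9.80, and the gap between the groups was only 0.01.

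**Figure D2:**
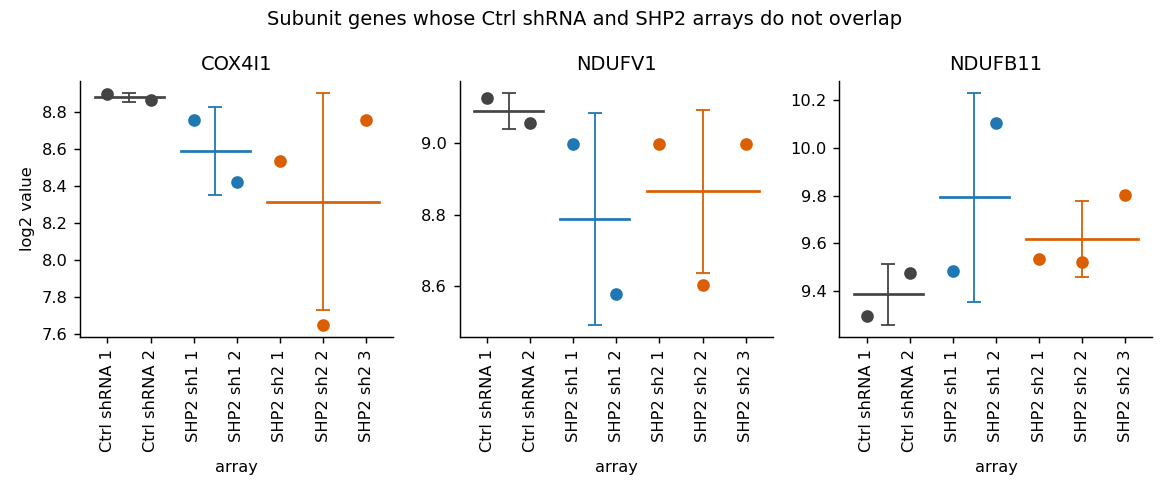
Log2 value (vertical axis, with its own range in each panel) of COX4I1, NDUFV1 and NDUFB11 on each of the 7 arrays. Horizontal lines are group means and bars are SDs (n = 2, 2 and 3), and the SHP2 arrays of COX4I1 lie between 7.65 and 8.75 under controls at 8.86 and 8.89.

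Complex I, which takes electrons from NADH, had 23 of 34 members below 0 averaged over both hairpins and 11 above, with a median of -0.12, and 13 below and 21 above without the 2 arrays that stood apart. Among its core subunits, NDUFS1, which holds iron-sulphur clusters, was at 8.88 and 8.80 with Ctrl shRNA, 8.99 and 7.86 with SHP2 sh1, and 8.47, 7.56 and 8.92 with SHP2 sh2. NDUFS3, another core subunit, was at 9.13 and 9.01, at 9.46 and 8.13, and at 8.88, 8.08 and 9.16. Both were lowest on the 2 arrays that stood apart, and on the SHP2 sh1 array that did not they lay above the controls. NDUFS7, which holds the cluster next to the ubiquinone site, had the smallest p of any member in any of the 4 comparisons. It was at 7.79 and 7.48 with Ctrl shRNA, 7.44 and 8.08 with SHP2 sh1, and 8.14, 8.31 and 8.05 with SHP2 sh2. The 3 SHP2 sh2 arrays lay above both controls and the SHP2 sh1 arrays on either side of them, with a log2 difference of 0.54 with SHP2 sh2 (standard error 0.25, adjusted p = 0.667 in limma). Of the members, 8 (10.1%) lay above both controls on all 3 SHP2 sh2 arrays, against 24.2% of all genes and 7.58% of the 4605 brightest.

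Among the accessory subunits of complex I, NDUFB5, of the membrane arm, was at 8.42 and 9.02 with Ctrl shRNA, 8.84 and 7.27 with SHP2 sh1, and 8.37, 6.43 and 8.57 with SHP2 sh2, and NDUFA5, an accessory subunit of the matrix arm, had a log2 difference of -0.67 averaged over both hairpins. The controls of NDUFB5 themselves differed, and only the 2 arrays that stood apart lay well under them. NDUFA13, also known as GRIM-19, was at 7.12 and 7.19, at 7.07 and 8.03, and at 7.28, 7.89 and 7.24. Here the 2 arrays that stood apart were the highest. For SHP2 sh2 against SHP2 sh1, the highest log2 differences of the members were 0.41 for NDUFS7, 0.37 for NDUFAB1, the mitochondrial acyl carrier protein, and 0.29 for NDUFA12, and NDUFB4 was at -0.42, none of them past the test.

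Complex II, the succinate dehydrogenase that also works in the TCA cycle, had all 3 members measured below 0, and 2 of 3 without the 2 arrays that stood apart. SDHA, its flavoprotein, was at 10.18 and 10.32 with Ctrl shRNA, 10.08 and 9.39 with SHP2 sh1, and 9.97, 9.01 and 10.38 with SHP2 sh2. SHP2 sh2 replicate 3 lay above both controls, and the log2 difference averaged over both hairpins was -0.49 (standard error 0.39, adjusted p = 0.758 in limma). SDHC and SDHD, the membrane anchors, depended on the probe taken for them.

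Each of SDHC, SDHD and ATP5MK had 2 probes with its name, and the probe of largest spread, which the rule takes, stood among probe numbers of another chromosome. The 10 nearest probe numbers named genes of chromosome 17 for SDHC, a gene of chromosome 1; of chromosome 1 for SDHD, a gene of chromosome 11; and of chromosome X for ATP5MK, a gene of chromosome 10. Over 19038 probes with at least 8 of 10 such neighbours on 1 chromosome, 99.13% named a gene of that chromosome. The SDHC probe taken was at 10.58 and 10.50 with Ctrl shRNA, 10.80 and 9.75 with SHP2 sh1, and 10.40, 9.33 and 10.81 with SHP2 sh2. The other SDHC probe, among numbers of chromosome 1, was at 7.50 and 7.50, at 7.39 and 7.22, and at 7.37, 7.50 and 7.89. SHP2 sh2 replicate 2 thus lay 1.21 below the controls by the probe taken and level with them by the other. For SDHD, the log2 difference averaged over both hairpins was -0.30 by the probe taken and -0.12 by the other, for SDHC -0.31 and -0.06, and for ATP5MK, a small subunit of ATP synthase, -0.80 and -0.50. The calls were 0 by either choice. Which transcript each probe reads was not tested.

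**Figure D3:**
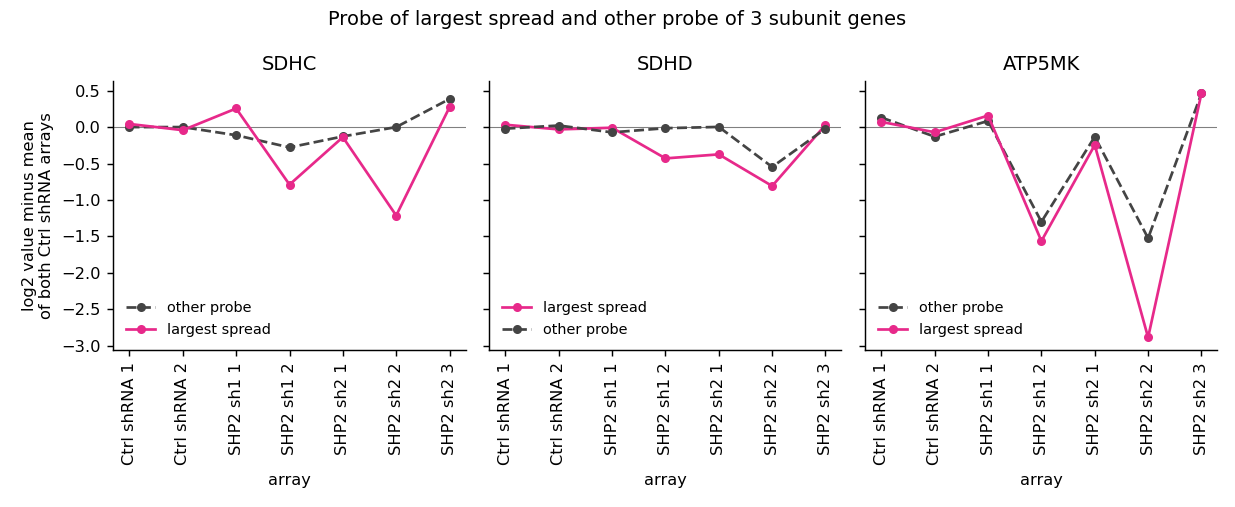
Log2 value minus the mean of both Ctrl shRNA arrays (vertical axis) on each array for both probes of SDHC, SDHD and ATP5MK. Lines join the points of a probe and carry no order. On SHP2 sh2 2 the probe of largest spread lies at -2.89 for ATP5MK, and the other probe lies higher in all 3 panels.

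Complex III, which passes electrons from ubiquinol to cytochrome c, had 6 of 7 members below 0, with a median of -0.13, and 3 of 7 without the 2 arrays that stood apart. UQCRC1 and UQCRC2 form its large matrix domain. UQCRC1 was at 8.19 and 8.01 with Ctrl shRNA, 8.01 and 7.71 with SHP2 sh1, and 7.78, 8.01 and 8.04 with SHP2 sh2. UQCRC2 was at 10.30 and 10.22, at 10.60 and 9.52, and at 10.14, 8.998 and 10.37, so the core subunits did not share a profile: only UQCRC2 was lowest on both arrays that stood apart. UQCRB, which helps form the ubiquinone site, had the lowest log2 difference averaged over both hairpins, -0.45, and UQCRH, the hinge subunit that meets cytochrome c, the highest, 0.18 (standard errors 0.36 and 0.23). UQCR10, a small membrane subunit, was at -0.03.

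Complex IV, which reduces oxygen, had 10 of 17 members below 0 and 7 above, with a median of -0.07, and 6 below and 11 above without the 2 arrays that stood apart. COX5A and COX5B, which cover the core of the enzyme on the matrix side, had log2 differences of -0.39 (standard errors 0.29 and 0.51) averaged over both hairpins. COX5A was at 10.23 and 10.15 with Ctrl shRNA, 10.02 and 9.43 with SHP2 sh1, and 10.06, 9.38 and 10.18 with SHP2 sh2. COX5B, whose promoter is shown above, was at 10.04 and 10.08, at 10.22 and 9.21, and at 9.46, 8.82 and 10.63. COX5B, but not COX5A, reached above both controls, on SHP2 sh1 replicate 1 and SHP2 sh2 replicate 3.

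Several complex IV subunits have a widely expressed form and another that is largely restricted to muscle, lung, testis or other tissues. The restricted forms COX4I2, COX6A2, COX6B2, COX7A1, COX7B2 and COX8C lay above both controls on both arrays that stood apart, and of the widely expressed forms COX4I1, COX6A1, COX6B1, COX7A2 and COX8A lay below. These 5 were all among the 4605 brightest genes, with mean levels of 8.55 to 11.05, and the restricted forms were not, with mean levels of 4.37 to 7.62. On the same arrays 67.7% of the brightest genes lay below both controls and 14.6% above, against 34.3% and 47.6% of all genes, and the part of level in the split of the forms was not tested. With cyclic loess or quantile normalization COX6B1 and COX8A lay above as well, and COX8C no longer lay above, so only COX4I1, COX6A1 and COX7A2 stayed below. COX6A2, known from heart and skeletal muscle, was at 7.21 and 7.23 with Ctrl shRNA, 7.20 and 8.15 with SHP2 sh1, and 7.49, 8.52 and 7.54 with SHP2 sh2, and its log2 difference averaged over both hairpins, 0.54 (standard error 0.38, adjusted p = 0.758 in limma), was the highest of the members. COX6A1, its widely expressed partner, was at 11.39 and 11.23, at 11.38 and 10.83, and at 11.17, 10.00 and 11.32. On the 2 arrays that stood apart the pair lay on opposite sides of its controls. COX4I2, the lung form of subunit 4, was at 6.54 and 6.39, at 6.41 and 6.85, and at 6.56, 7.13 and 6.41. On SHP2 sh1 replicate 1 and SHP2 sh2 replicate 3 it lay between its controls, and the log2 difference averaged over both hairpins was 0.20 (standard error 0.26), against -0.43 for COX4I1.

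**Figure D4:**
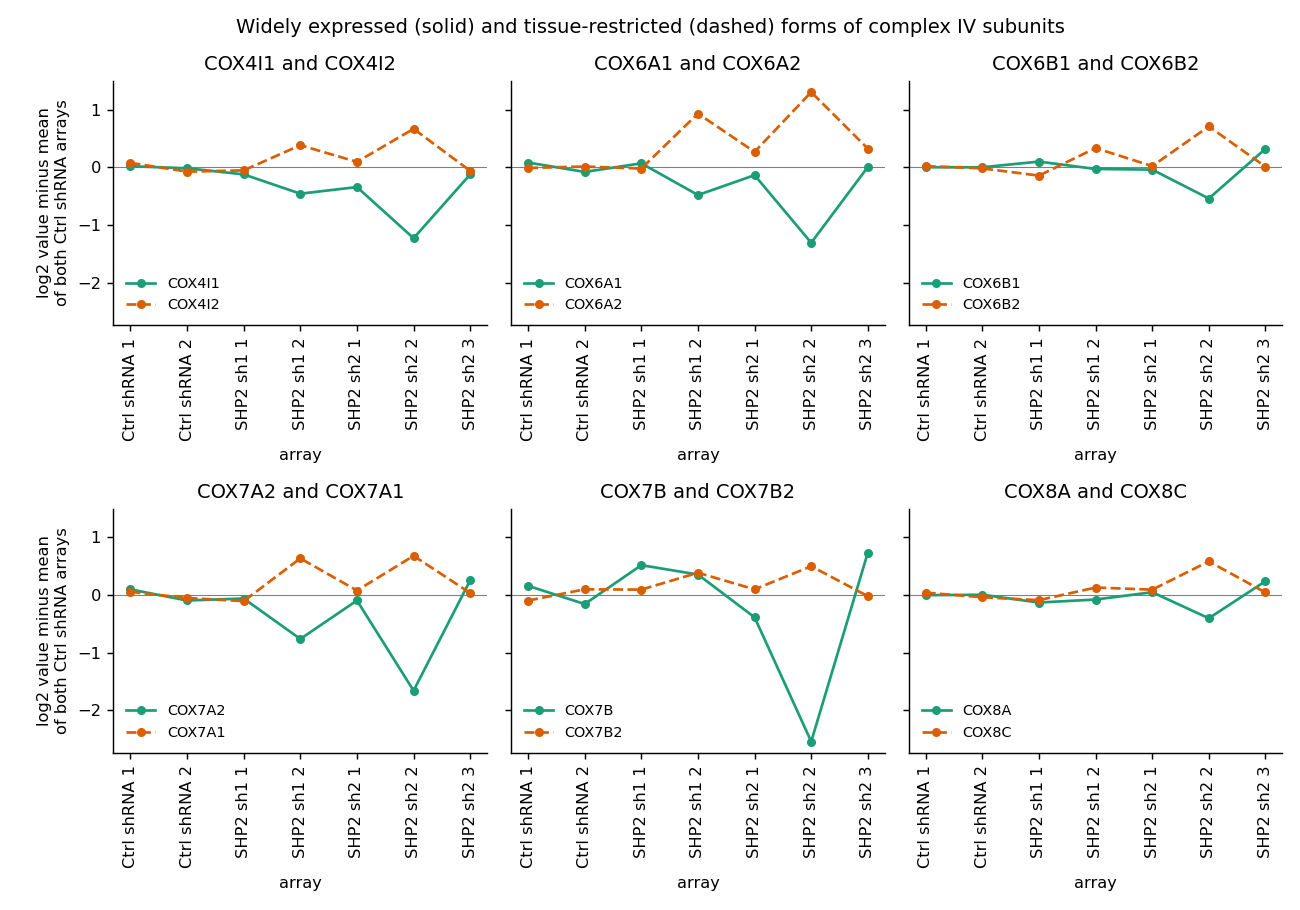
Log2 value minus the mean of both Ctrl shRNA arrays (vertical axis) on each array for 6 pairs of complex IV genes, with the widely expressed form solid and the tissue-restricted form dashed. Lines join the points of a gene and carry no order. On SHP2 sh2 2 COX6A2 lies at 1.30 and the widest gap is that of COX7B and COX7B2, 3.04, ahead of 2.61 for COX6A1 and COX6A2, and on SHP2 sh1 1 every restricted form lies close to 0.

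The pair of COX7B and COX7B2 was the exception. COX7B was at 5.99 and 5.67 with Ctrl shRNA, 6.35 and 6.19 with SHP2 sh1, and 5.44, 3.29 and 6.57 with SHP2 sh2. It was above both controls on both SHP2 sh1 arrays, as were 12.8% of all genes, and lowest on SHP2 sh2 replicate 2. Its log2 difference between the hairpins, -1.17 (standard error 0.86, adjusted p = 1 in limma), was the lowest of the members. COX6C, another small subunit, had -0.55 for the same comparison. COX7A2L, which takes part in joining complexes III and IV, stayed between 7.97 and 8.32 on all 7 arrays. COXFA4 and COXFA4L2, formerly NDUFA4 and NDUFA4L2 and outside the symbol rule, had log2 differences averaged over both hairpins of -0.14 and 0.31.

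Complex V had 13 of 18 members below 0 and 5 above, with a median of -0.25, and 8 below and 10 above without the 2 arrays that stood apart. ATP5F1A and ATP5F1B form the catalytic head. ATP5F1B was at 11.91 and 11.76 with Ctrl shRNA, 11.91 and 10.98 with SHP2 sh1, and 11.56, 10.50 and 11.86 with SHP2 sh2, and ATP5F1A at 9.16 and 9.39, at 9.18 and 8.53, and at 8.98, 8.37 and 9.63. Both lay below the controls on 3 SHP2 arrays and not on the other 2. ATP5IF1, which inhibits the enzyme when it runs in reverse, stayed between 7.18 and 7.45 on all arrays. ATP5MJ, a small subunit of the membrane part, had the lowest log2 difference of all members averaged over both hairpins, with NDUFB5 and, by the probe taken, ATP5MK next, both at -0.80. By its probe among numbers of its own chromosome, ATP5MK was at -0.50. ATP5MJ was at 8.62 and 8.34, at 8.54 and 6.90, and at 7.92, 6.12 and 8.57. Its difference of -0.85 had a standard error of 0.72 and rested on the 2 arrays that stood apart. ATP5ME, another small membrane subunit, was at 0.24 for the same comparison.

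ATP5MC1, ATP5MC2 and ATP5MC3 are separate genes for the same mature c subunit, which forms the rotating ring. ATP5MC1 was at 11.81 and 11.45 with Ctrl shRNA, 11.63 and 10.51 with SHP2 sh1, and 11.62, 10.27 and 11.86 with SHP2 sh2. ATP5MC2 was at 9.07 and 9.05, at 8.78 and 9.20, and at 9.07, 9.40 and 9.19, and ATP5MC3 at 6.08 and 5.995, at 6.05 and 6.25, and at 6.14, 6.78 and 6.14. The arrays that stood apart were the lowest for ATP5MC1 and the highest for the other two, and the log2 differences averaged over both hairpins were -0.47, 0.04 and 0.21 (standard errors 0.50, 0.20 and 0.23).

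Members shared a profile over the arrays in large part. The correlation of a member over the 7 arrays with the median of the other members had a median of 0.84 and was over 0.9 for 29 of 79 and below 0 for 23. It was highest for NDUFB3, an accessory subunit of complex I, at 0.99, and lowest for COX4I2, at -0.97. NDUFB3 was at 6.12 and 6.12 with Ctrl shRNA, 6.38 and 5.08 with SHP2 sh1, and 5.51, 4.54 and 6.57 with SHP2 sh2. The points are 7 arrays that share their normalization and of which 2 stood apart, so these correlations are a description.

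Members of chromosome 19 made up much of the opposing group, a pattern seen after the values were known. Of the 11 members there, 9 lay above both controls on both arrays that stood apart: ATP5F1D, COX6B2, COX7A1, NDUFA3, NDUFA7, NDUFA11, NDUFA13, NDUFS7 and UQCR11. COX6B1 lay below and NDUFB7 did neither. With cyclic loess or quantile normalization all 11 lay above, and with median centring 7. Of the 68 members on other chromosomes, 11 (16.2%) lay above and 48 (70.6%) below. Over all genes, 64.4% of 1309 on chromosome 19 and 46.3% of 17083 elsewhere lay above both controls on both arrays, and among the 4605 brightest genes 33.3% of 303 and 13.2% of 4300. The median of the 11, measured from the controls, was -0.19 and 0.43 on the SHP2 sh1 arrays and 0.08, 0.43 and 0.03 on the SHP2 sh2 arrays. On SHP2 sh1 replicate 1, 9 of the 11 lay below both controls, against 17 of 68 elsewhere, and on SHP2 sh1 replicate 2, 10 of the 11 lay above both, so arrays of the same hairpin lay on opposite sides. All genes of chromosome 19 were on the same sides of 0 on these 2 arrays, with medians of -0.09 and 0.33, and those elsewhere were at -0.02 and 0.08. Of the 1309 genes of chromosome 19, 55.5% lay below both controls on SHP2 sh1 replicate 1 and 70.7% above both on replicate 2. For genes elsewhere these shares were 39.7% and 51.4%.

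**Figure D5:**
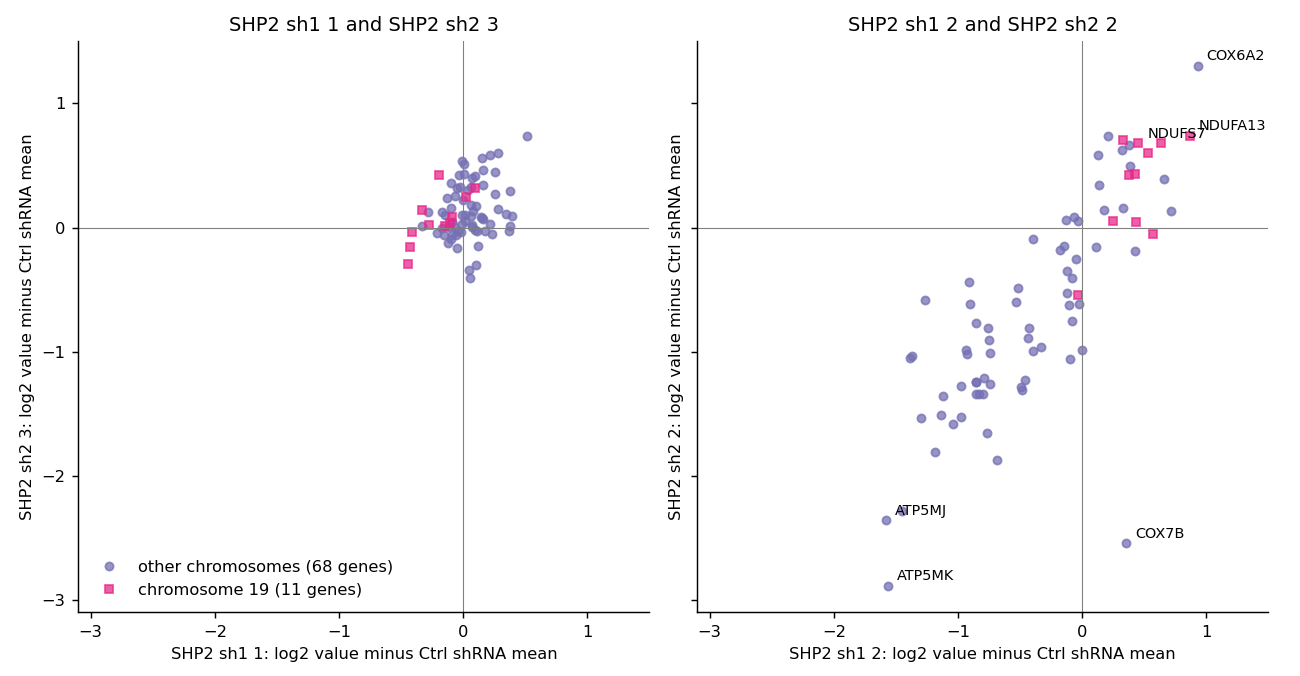
Each point is a subunit gene, with its log2 value minus the mean of both Ctrl shRNA arrays on an SHP2 sh1 array (horizontal axis) and on an SHP2 sh2 array (vertical axis), for SHP2 sh1 1 and SHP2 sh2 3 on the left and the 2 arrays that stood apart on the right. Squares are the 11 members of chromosome 19, and on the right 9 of them lie above 0 on both axes, while most other members lie below 0 on both.

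The members with the NRF1 letters in a promoter were 9 below, 3 above and 1 neither on both arrays that stood apart, and those with the ETS letters 8 below and 2 above of 12, where all 79 members were 49 below and 20 above. Those with the YY1 letters were 7 below and 3 above of 11. NRF1 itself lay between 7.08 and 7.20 on all 7 arrays, and GABPA was at 7.74 and 7.63 with Ctrl shRNA, 7.87 and 7.01 with SHP2 sh1, and 7.60, 7.14 and 7.60 with SHP2 sh2. No regulator passed the test.

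Other genes of the pathway gave the same count of calls, 0 in all lists and comparisons in limma, and 0 at an unadjusted p under 0.05. Of 44 of 52 assembly factors that were measured, 36 lay below 0 averaged over both hairpins, with a median of -0.24, and 24 of 44 without the 2 arrays that stood apart. NDUFAF5, NDUFAF7, NUBPL, SDHAF3, COX18 and COX20 lay below both controls on all 5 SHP2 arrays, 13.6% against 7.17% of all genes and 13.1% of the 4605 brightest, and none lay above. Without the 2 arrays that stood apart 7 lay below, COX14 being added, 15.9% against 8.81% of all genes and 15% of the brightest. COX18, which inserts a complex IV subunit into the membrane, was at 8.27 and 8.12 with Ctrl shRNA, 7.65 and 6.93 with SHP2 sh1, and 7.52, 6.19 and 7.65 with SHP2 sh2, with a log2 difference of -0.99 (standard error 0.44, adjusted p = 0.758 in limma). It was lower on every SHP2 array, also on those that did not stand apart. SDHAF3, a factor of complex II, had a difference of -0.46 (standard error 0.22, adjusted p = 0.758 in limma).

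Of 15 of 17 genes of the TCA cycle and pyruvate dehydrogenase that were measured, 13 lay below 0, with a median of -0.39, and 9 without the 2 arrays that stood apart. SUCLA2, a subunit of succinyl-CoA synthetase, was at 9.48 and 10.14 with Ctrl shRNA, 9.39 and 7.07 with SHP2 sh1, and 8.26, 6.71 and 9.56 with SHP2 sh2, and DLD, a subunit shared by several dehydrogenases, had a log2 difference of -0.90 (standard error 0.62). CS, citrate synthase, lay below both controls on all 5 SHP2 arrays, 1 of 15 genes (6.67%) against 7.17% of all genes. Of 22 regulators and genes of mitochondrial DNA expression, 14 lay below 0, and 15 without the 2 arrays that stood apart. PPARGC1B, a coactivator of mitochondrial genes, had the smallest p of this list and was at 7.35 and 7.50 with Ctrl shRNA, 7.41 and 8.13 with SHP2 sh1, and 7.85, 8.03 and 7.70 with SHP2 sh2. It lay above both controls on 4 of 5 SHP2 arrays, with a log2 difference of 0.39 (standard error 0.24, adjusted p = 0.758 in limma). MTERF3, at -0.32 (standard error 0.22), lay below both controls on all 5 together with MTERF1 and SSBP1, 3 of 22 (13.6%) against 7.17% of all genes. Of 7 of 8 other chain genes, 5 lay below 0, and 3 without the 2 arrays that stood apart. CYCS, cytochrome c, was at -0.50 (standard error 0.37), and ETFB, an electron carrier of fatty acid oxidation, at 0.25, was above both controls on all 5, 1 of 7 (14.3%) against 8.13% of all genes.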

How the data were processed

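RNA of SUM159 cells was hybridized to 7 Human Gene 1.0 ST arrays. The authors ran oligo, with no version stated, on the scanner files. They deposited log2 expression values from robust multi-array averaging, with background correction and quantile normalization of single probes. These log2 values were used as deposited. Of 33297 probes, 19460 carried 1 gene symbol in the array annotation, 1754 several and 12083 were not listed. Of the 19460 probes, 19429 had a gene ID that was found in the RefSeq table of GRCh38.p14. For each of 18417 genes the probe of largest interquartile range was taken, after the study's methods, which concerned 7 members with more than 1 probe. No filter was set.

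Groups were taken from the sample titles. The 3 group means were fitted over all 7 arrays in limma (3.58.1, R 4.3.3) with eBayes, two-sided, with Benjamini-Hochberg adjustment over all genes and a threshold of 0.05. The fit was tested on simulated data with the same independent noise for every gene and no array standing apart. That check concerns the code and does not show which changes these 7 arrays could detect. Medians and counts of genes below or above both controls carry no test. Members and gene lists were chosen with earlier results of these data known. Genes named were core subunits, isoform families, the 2 lowest and highest members of each complex, members not overlapping between groups, the 3 lowest and highest between hairpins, the profiles most and least like the rest, and the 2 of smallest p in each pathway list. Others were named after their values were seen. Alternatives were another probe or the mean of probes, a minimum mean log2 of 5, cyclic loess, quantile normalization, median centring, array weights, a variance trend in eBayes, the replicate block, fits on only the compared arrays, symbols as given, and leaving out arrays. Protein identity of isoforms was not analysed here. The number of arrays limits the precision.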

Additional observations from a re-analysis of the deposited data

How the results depend on the processing

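The count of 0 members called held under all alternatives run. With array weights, an estimate that ended short of convergence and gave SHP2 sh2 replicate 1 almost no weight, limma called 30 genes with SHP2 sh2 and none of them was a member. The median log2 difference of the members moved by less than its spread between replicates under all alternatives, from -0.25 to 0.02 averaged over both hairpins, from -0.33 to 0.01 with SHP2 sh1, from -0.34 to 0.05 with SHP2 sh2 and from -0.18 to 0.19 between the hairpins. With the replicate block, a fit in which SHP2 sh2 replicate 3 has no partner and so carries no weight, the median was -0.34 with SHP2 sh2 and 0 members were called, with 18 at an unadjusted p under 0.05. Over all genes limma also called 0 in that fit. The unadjusted count was not taken over all genes there, so the 18 has no background. The replicate numbers need not pair the arrays: over all genes, the deviations of same-numbered arrays correlated at -0.06 to 0.02 between controls and SHP2 arrays and at 0.62 and 0.85 between the hairpins, and SHP2 sh1 replicate 1 also at 0.81 with SHP2 sh2 replicate 3.

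The number of members below both controls on every SHP2 array, 2, was 1 with quantile normalization and 2 to 11 with single arrays left out, highest without Ctrl shRNA replicate 2, then 6 without SHP2 sh1 replicate 1 and 4 without Ctrl shRNA replicate 1 or SHP2 sh2 replicate 3. The number above, 1, was 3 with cyclic loess or quantile normalization, 0 with median centring, 4 without the 2 arrays that stood apart, and 1 to 8 with single arrays left out, highest without SHP2 sh1 replicate 1, then 5 and 3 without Ctrl shRNA replicates 2 and 1. COX4I1 was among the members below in each of these settings. Leaving out an array eases the condition for every gene. The shares of all genes are not given here for single arrays left out, so these counts have no background. On the 2 arrays that stood apart the counts of 49 below and 20 above stayed within 49 to 55 and 20 to 24 with single arrays left out. Of all genes, 36.7% to 40.4% then lay below and 51% to 53.9% above.

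Of the log2 differences of 45 named members averaged over both hairpins, none of them called, 25 changed sign under some alternative, and the cause was not tested. Without the 2 arrays that stood apart, 24 did: NDUFS1 0.004, NDUFS3 0.17, NDUFB3 0.086, NDUFB4 0.17, NDUFA12 0.28, NDUFAB1 0.16, SDHC 0.16, UQCRC2 0.17, UQCR10 0.15, COX4I2 -0.019, COX5B 0.069, COX6A1 0.001, COX6B1 0.12, COX6B2 -0.065, COX6C 0.13, COX7A1 -0.026, COX7A2 0.009, COX7B 0.34, COX8A 0.006, COX8C -0.012, ATP5MC1 0.055, ATP5MC2 -0.11, ATP5ME -0.009 and ATP5MK 0.13. With cyclic loess COX6B1 was at 0.20, COX8A at 0.16, COX8C at -0.042, UQCR10 at 0.15, NDUFB4 at 0.13 and NDUFA12 at 0.056. With quantile normalization ATP5IF1 was at 0.023, COX6B1 at 0.17, COX8A at 0.11, UQCR10 at 0.13, NDUFB4 at 0.10 and NDUFA12 at 0.042. With array weights COX5B was at 0.016, COX6B1 at 0.13, COX7B at 0.42, COX8A at 0.035, UQCR10 at 0.14, NDUFB4 at 0.025 and NDUFA12 at 0.064. With median centring ATP5MC2 was at -0.008. With single arrays left out the ranges that crossed 0 were -0.034 to 0.032 for ATP5IF1, -0.062 to 0.15 for ATP5MC2, -0.13 to 0.087 for COX6B1, -0.52 to 0.30 for COX7B, -0.14 to 0.019 for COX8A, -0.44 to 0.096 for NDUFA12, -0.17 to 0.061 for NDUFB4, -0.65 to 0.016 for NDUFS3 and -0.15 to 0.11 for UQCR10. Symbols as given changed no value. The number of arrays, 2 or 3 a group, limits the precision, and the absence of calls does not show that the members did not differ.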
